A study of Mus musculus with 10 samples.

Results

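The genes described here are 9 markers of excitatory, glutamate-releasing neurons: the vesicular glutamate transporters Slc17a7 (VGLUT1) and Slc17a6 (VGLUT2), and the transcription factors Neurod1, Neurod2, Neurod6, Tbr1, Prox1, Bcl11b and Zbtb20. They were chosen by name, as factors and transporters of glutamatergic neurons, from the 48709 genes of the count tables, and all 9 passed the filter on low counts. Polyadenylated RNA was sequenced from primary mouse hippocampal neurons after 10 days in vitro. The 6 tunicamycin libraries came from cultures given 2 ug/mL of tunicamycin, which blocks N-linked glycosylation and so causes stress of the endoplasmic reticulum (ER), and the 4 DMSO libraries from cultures given the solvent, each for 6 h. No strain, genotype or sex is given for either group, and separate cultures are not stated for the libraries of either group, so p-values measure the spread between libraries, which may be technical.

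Vesicular glutamate transporters fill synaptic vesicles with glutamate, driven by the proton gradient that the vesicular proton pump sets up. VGLUT1 and VGLUT2 are commonly used as markers of glutamatergic neurons. In the rodent hippocampus VGLUT1 is the main form of mature neurons, while VGLUT2 is more prominent in young ones. The transcription factors act in sequence as these neurons are born and mature: progenitor factors such as Pax6, Neurog2 and Eomes give way to the NeuroD proteins and Tbr1, and Prox1, Bcl11b and Zbtb20 help to set which hippocampal cell type a neuron becomes. NeuroD proteins are basic helix-loop-helix (bHLH) factors that pair with E proteins and bind the E-box, a short DNA motif.

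Promoter windows of all 9 members, each running from 250 bases before to 50 after an annotated start, were taken from RefSeq on GRCm38.p6, 11 windows in all because Slc17a6 and Prox1 have 2 starts. The windows of the 4 members whose libraries did not overlap between the groups are shown 5′ to 3′ on the strand of the gene, with every E-box, CANNTG, in capitals. For Slc17a6 and Prox1 the window of the upstream start is shown.
Slc17a7 (chr7:45163671-45163970, plus strand): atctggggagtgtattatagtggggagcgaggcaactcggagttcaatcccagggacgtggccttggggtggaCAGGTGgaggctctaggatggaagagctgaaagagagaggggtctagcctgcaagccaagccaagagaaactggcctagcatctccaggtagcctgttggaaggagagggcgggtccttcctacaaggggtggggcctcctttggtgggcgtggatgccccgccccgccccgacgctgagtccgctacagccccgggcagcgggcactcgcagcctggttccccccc
Slc17a6 (chr7:51621580-51621879, plus strand): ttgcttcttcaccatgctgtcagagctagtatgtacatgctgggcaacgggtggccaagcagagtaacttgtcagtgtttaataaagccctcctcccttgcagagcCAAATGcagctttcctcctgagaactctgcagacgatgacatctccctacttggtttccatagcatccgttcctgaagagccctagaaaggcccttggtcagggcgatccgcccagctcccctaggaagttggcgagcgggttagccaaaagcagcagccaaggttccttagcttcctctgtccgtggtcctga
Tbr1 (chr2:61804203-61804502, plus strand): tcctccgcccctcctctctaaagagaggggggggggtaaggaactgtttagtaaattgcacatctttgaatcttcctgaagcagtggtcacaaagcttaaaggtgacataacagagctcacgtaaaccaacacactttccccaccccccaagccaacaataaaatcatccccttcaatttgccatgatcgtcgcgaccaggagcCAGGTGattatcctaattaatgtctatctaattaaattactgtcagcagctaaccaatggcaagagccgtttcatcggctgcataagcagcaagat
Prox1 (chr1:190170778-190171077, minus strand): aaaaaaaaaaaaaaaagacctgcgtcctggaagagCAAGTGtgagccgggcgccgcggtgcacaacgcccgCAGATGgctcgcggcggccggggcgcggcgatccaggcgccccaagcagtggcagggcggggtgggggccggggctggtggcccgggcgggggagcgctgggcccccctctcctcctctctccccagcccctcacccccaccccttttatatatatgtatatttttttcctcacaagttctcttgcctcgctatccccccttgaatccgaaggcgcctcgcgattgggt
E-boxes were found on either strand in windows of 8 of the 9 members, Bcl11b being the exception, and in 72.3% of all 32851 windows of this length. The Slc17a7 and Tbr1 windows held the same letters, CAGGTG, starting 177 and 46 bases before the start. The form CAGATG, which NeuroD factors are known to bind and which is itself an E-box, was in windows of Slc17a6 (the downstream start), Neurod2 and Prox1, and in 17.2% of all windows. Among motifs of stress and activity factors, the cyclic AMP response core TGACGT was found for Neurod2 (7.51% of all windows) and the EGR motif GCGNGGGCG, with 3 matches, for Neurod1 (5.55%). No member window held the AP-1 motif TGANTCA (7.81% of all windows), the C/EBP-ATF motif TGATGNAAT (0.965%) or the ER stress element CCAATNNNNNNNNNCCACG (0.119%), all read on both strands.

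Depth was 21055289 to 29234887 counts per library. Hspa5, the ER chaperone BiP, averaged 3211 ± 150 CPM (counts scaled to a library total of 1e6; SD, n = 6) with tunicamycin and 613 ± 44.7 CPM (n = 4) with DMSO, a log2 fold change of 2.38. Ddit3, the stress factor CHOP, averaged 264 ± 13.1 CPM with tunicamycin and 34.35 ± 1.57 CPM with DMSO, with 10.9% of its exonic bases in another gene. The cultures also held other cells: the 11 astrocyte markers summed to 2232 to 2470 CPM with tunicamycin and 3262 to 3667 CPM with DMSO. Counts were of whole cultures, in which fewer cells of a type and less RNA per cell cannot be told apart. The 6 tunicamycin libraries were spread evenly over sequencing lanes 1, 2 and 3 named in the file names, while lane 1 held 2 of the DMSO libraries and lanes 2 and 3 held 1 each.

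Of the 9 members, Slc17a6 rose and 5 fell with tunicamycin, namely Tbr1, Prox1, Slc17a7, Bcl11b and Neurod2. Neurod1, Neurod6 and Zbtb20 did not pass the test, edgeR's quasi-likelihood test at an adjusted p under 0.05 over all 15660 genes tested. Of all genes tested, 64.3% passed, 31.8% higher and 32.5% lower, so the number of members called, 6 of 9, is near the background. Upper-quartile scaling, which moved the median of all genes by -0.11, gave 3632 genes higher and 6934 lower, where the reported fit gave 4983 and 5082. The members' median log2 fold change was -0.13, beside -0.02 for all genes tested. The libraries of the groups did not overlap in CPM for Slc17a6, which was higher, and for Slc17a7, Tbr1 and Prox1, which were lower. Over all genes tested the groups did not overlap for 50.9%, 27% higher and 23.9% lower. The authors' deposited tables list the same direction for the 6 called members, Slc17a6 among the higher genes and the other 5 among the lower, and list none of the other 3.

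**Figure D1:**
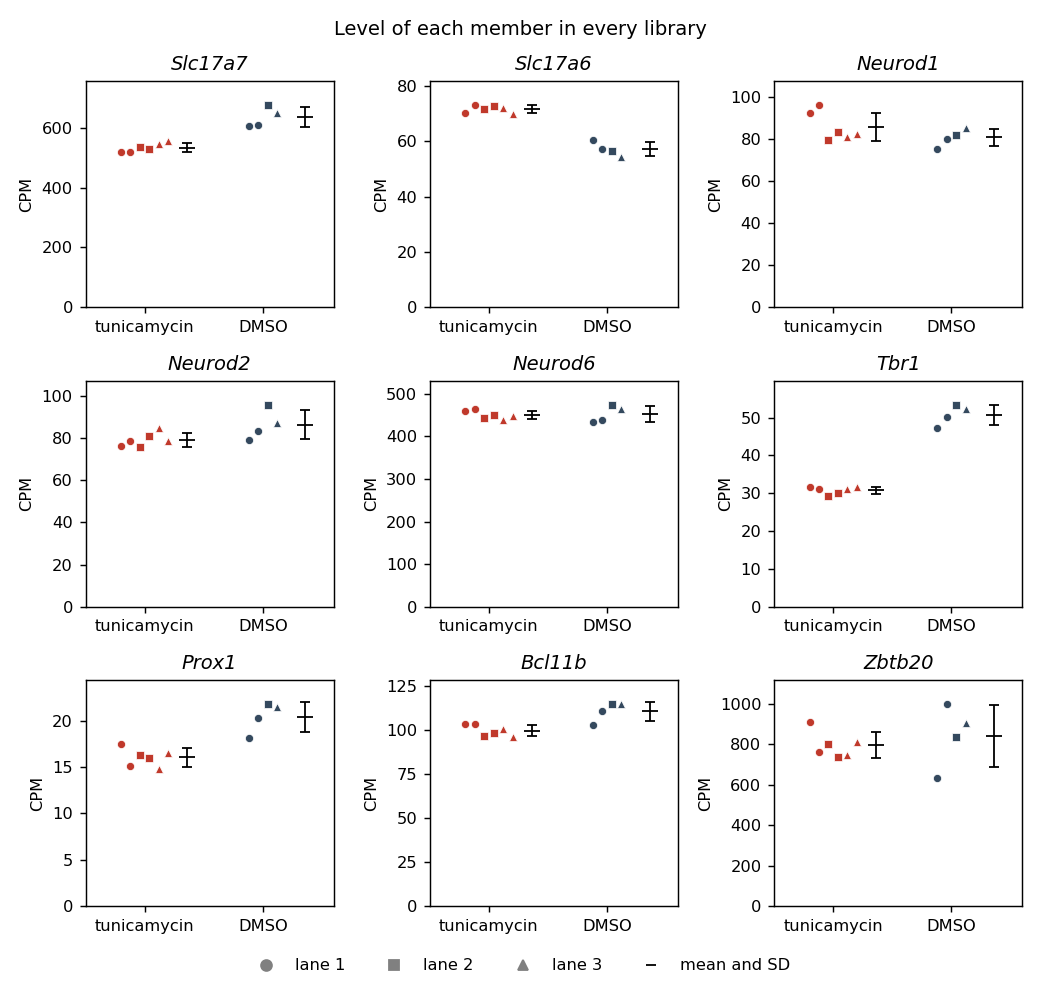
CPM of the 9 members in each library, tunicamycin (6 libraries, red) left of DMSO (4 libraries, dark), with the mean and SD in black and the marker shape giving the sequencing lane. The groups are apart for Slc17a7, Slc17a6, Tbr1 and Prox1, and the DMSO libraries of Zbtb20 spread from 634 to 998 CPM.

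The 2 vesicular glutamate transporters moved in opposite directions. Slc17a7 (ENSMUSG00000070570, chromosome 7, 45163949 to 45176142, GRCm38) encodes VGLUT1. It had 517 CPM in the lowest, 531 in the median and 555 in the highest of the tunicamycin libraries, against 606, 608, 675 and 648 CPM in the DMSO libraries. Every tunicamycin library lay below every DMSO library. It fell, with a log2 fold change of -0.26 ± 0.04 (SE; adjusted p = 1.35e-06 by edgeR), and of -0.22, -0.37 and -0.24 in lanes 1, 2 and 3 alone.

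Slc17a6 (ENSMUSG00000030500, chromosome 7, 51622006 to 51671119) encodes VGLUT2. It had 69.7 CPM in the lowest, 71.8 in the median and 73.0 in the highest tunicamycin library, against 60.4, 57.4, 56.6 and 54.2 CPM in the DMSO libraries. The 6 tunicamycin libraries were close together, with a coefficient of variation of 1.97%, and all lay above the DMSO libraries. It rose by 0.32 ± 0.03 on the log2 scale (SE; adjusted p = 4.56e-08 by edgeR), and 0.29, 0.33 and 0.38 in lanes 1, 2 and 3 alone.

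The balance of the pair shifted with these opposite changes. There were 7.46 ± 0.295 Slc17a7 counts for each Slc17a6 count with tunicamycin (SD, n = 6), against 11.1 ± 0.965 with DMSO (n = 4). The ratios ran from 7.12 to 7.96 with tunicamycin and from 10.03 to 11.95 with DMSO and did not overlap, a difference of -0.57 on the log2 scale. The annotated exons of both genes are of nearly equal length, 5392 and 5399 bases, so the ratio per length was almost the same, 7.47 with tunicamycin and 11.1 with DMSO. This ratio was read as a description, with no test. Slc17a7 RNA remained the more abundant of the pair in every library, and the proteins were not measured. The sum of both transporters was 605 ± 14.2 CPM with tunicamycin and 691 ± 31.9 CPM with DMSO.

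**Figure D2:**
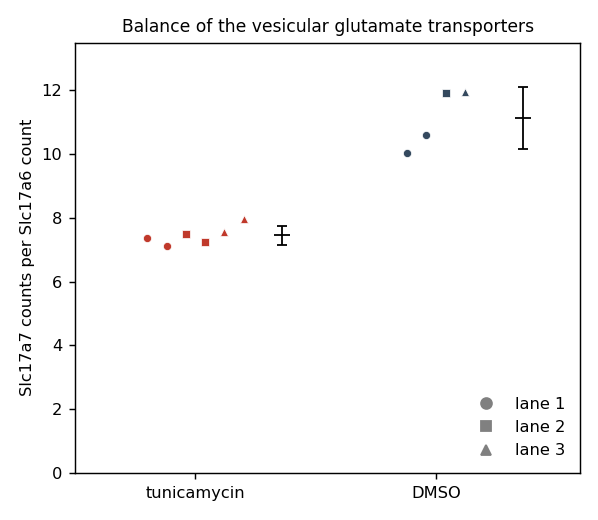
Slc17a7 counts per Slc17a6 count in each library, tunicamycin (6 libraries) left of DMSO (4 libraries), with mean and SD in black and the marker shape giving the lane. All tunicamycin libraries are at or below 7.96 and all DMSO libraries at or above 10.03.

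Genes that work beside the transporters were read from 3 lists. Of 11 tested genes of other vesicular transporters, 6 fell and 1 rose, and the median change was -0.19 (log2). Among the falls, Slc18a3, Slc30a3 and Slc10a4 were near the floor, with means of at most 1.867 CPM in either group. Slc32a1, the transporter of GABA and glycine in inhibitory neurons, averaged 34.3 ± 1.34 CPM with tunicamycin and 42.1 ± 2.49 CPM with DMSO. Its change was -0.30 ± 0.05 on the log2 scale (adjusted p = 4.53e-06 by edgeR), but 24.9% of its exonic bases overlap another gene and its counts are uncertain. Slc17a5, the lysosomal sialic acid transporter of the same family, rose (log2 0.14, edgeR adjusted p = 0.0151), but did not pass under upper-quartile scaling or with the replicate block. The list had 2 rises without DMSO replicate 2 or tunicamycin replicate 1 and 3 with no filter. Slc17a8 (VGLUT3) was at 3.78 ± 0.4928 CPM with tunicamycin and 4.46 ± 0.797 CPM with DMSO and did not pass (log2 -0.25, edgeR adjusted p = 0.0723).

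Of 16 genes of the vesicular proton pump, which powers the loading of glutamate, 11 fell and 1 rose, where 32.5% of all genes tested fell. The median was -0.15, and -0.27 under upper-quartile scaling. Counts were of all cells of the cultures, and the loading of glutamate by this pump was not measured. Atp6v1g2, a brain-enriched subunit of its stalk, averaged 153 ± 6.95 CPM with tunicamycin and 202 ± 7.52 CPM with DMSO (log2 -0.41 ± 0.04, edgeR adjusted p = 1.47e-09). Atp6v0a1, a subunit of the membrane part, was the gene that rose (log2 0.12), a call lost under upper-quartile scaling. Of 14 genes of glutamate synthesis and uptake, 9 fell and 3 rose, with a median of -0.21. Among the falls, Slc1a2, Slc1a3 and Glul are also counted in the list of astrocyte markers. Slc38a2, a glutamine transporter known as a target of amino acid stress signalling, averaged 276 ± 13.8 CPM with tunicamycin and 83.2 ± 3.67 CPM with DMSO (log2 1.72 ± 0.04, edgeR adjusted p = 6.42e-19). Slc1a3, the glutamate transporter of astrocytes, fell (log2 -0.83).

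Tbr1 (ENSMUSG00000035033, chromosome 2, 61802930 to 61814114), a T-box factor of newly made glutamatergic neurons that also marks early-born Cajal-Retzius cells, fell the most among the members. It had 29.2 CPM in the lowest, 31.1 in the median and 31.6 in the highest tunicamycin library, against 47.3, 50.1, 53.4 and 52.3 CPM in the DMSO libraries. The highest tunicamycin library was well below the lowest DMSO library. Its log2 fold change, -0.73 ± 0.04 (SE; adjusted p = 3.21e-12 by edgeR), was lower than that of all but 5.15% of the genes tested. In lanes 1, 2 and 3 alone it was -0.63, -0.87 and -0.74.

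The factors that precede and accompany Tbr1 moved in both directions. Of 11 tested upstream lineage factors, 4 rose and 1 fell, and the median change was 0.14 on the log2 scale. Under upper-quartile scaling 2 rose and 4 fell, with a median of 0.02. With the replicate block 3 rose and 2 fell, with a median of 0.08, and 2 fell with lane as a term. Eomes, the T-box factor of intermediate progenitors that precedes Tbr1, was near the floor, at 0.457 ± 0.206 CPM with tunicamycin and 0.964 ± 0.217 CPM with DMSO (log2 -1.09 ± 0.27, edgeR adjusted p = 0.00139). It is the only fall in that list, which has none when a mean of at least 1 CPM is required. Without DMSO replicate 1 the list had 2 rises and a median of 0.08. Pax6 (log2 -0.10) and Neurog2 (log2 -0.08) did not pass the test. Of 7 tested Cajal-Retzius markers 3 fell (Trp73, Ndnf and Calb2) and none rose, with a median of -0.18. The falls numbered 5 under upper-quartile scaling and 2 to 4 with 1 library left out (2 without any 1 of DMSO replicates 2, 3 and 4 and tunicamycin replicate 4), and 1 marker rose without DMSO replicate 4. Reln, the secreted protein these cells are known for, did not pass (log2 -0.03, 409 ± 22.0 CPM with tunicamycin and 415 ± 29.0 CPM with DMSO). These cells' defining factors Lhx1, Lhx5 and Ebf3 were each at or below 1.41 CPM in both groups.

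**Figure D3:**
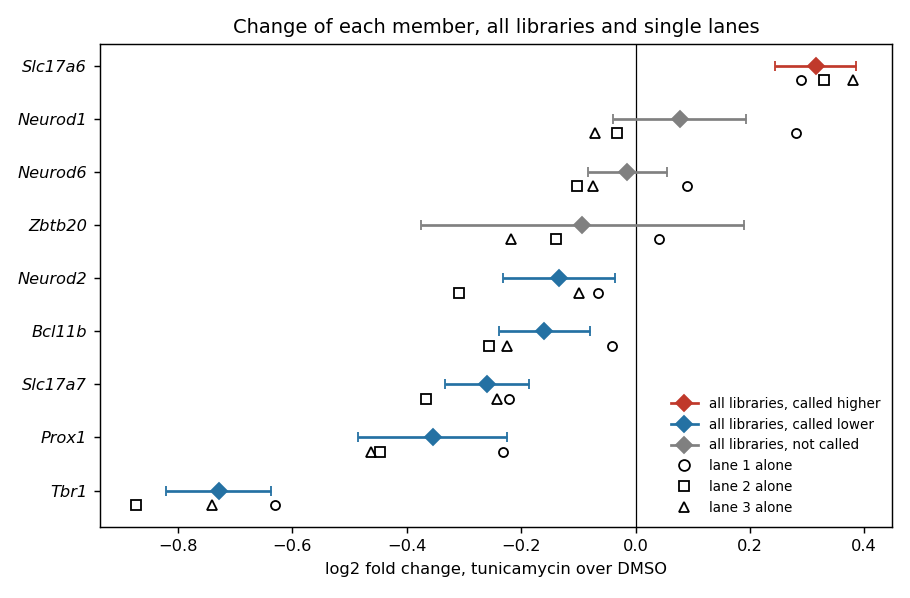
Log2 fold change of each member, tunicamycin over DMSO, on the horizontal axis. Diamonds with 95% intervals are the fit on all 10 libraries (red called higher, blue called lower, gray not called), and open symbols are single lanes. Tbr1 is farthest left at -0.73, Slc17a6 is the only member called higher, and the single-lane values of Neurod1, Neurod6 and Zbtb20 fall on both sides of 0.

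Of the 3 NeuroD factors, Neurod2 fell and Neurod6 and Neurod1 did not pass the test. Neurod6 (ENSMUSG00000037984, chromosome 6, 55677822 to 55681263), a factor of pyramidal neurons, ranged from 438 to 464 CPM with tunicamycin and from 434 to 474 CPM with DMSO, so that the range of the DMSO libraries enclosed that of the tunicamycin libraries. Its log2 fold change was -0.01, with a 95% interval of -0.08 to 0.05 (edgeR adjusted p = 0.727). Under upper-quartile scaling it was called at -0.13. In lanes 1, 2 and 3 alone it was 0.09, -0.10 and -0.07, and of these the lane 2 value was called lower (edgeR adjusted p = 0.0399), against a single DMSO library.

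Neurod2 (ENSMUSG00000038255, chromosome 11, 98325415 to 98329648), which is known for its part in the maturation of hippocampal synapses, fell by 0.13 on the log2 scale (SE 0.05; edgeR adjusted p = 0.0168). It ranged from 75.9 to 84.6 CPM with tunicamycin and had 79.2, 83.4, 95.7 and 87.0 CPM with DMSO, so the groups overlapped. The call was lost without DMSO replicate 3 (log2 -0.07, edgeR adjusted p = 0.152) or replicate 4 (log2 -0.12, edgeR adjusted p = 0.053). It passed in lane 2 alone (log2 -0.31) and not in lane 1 (log2 -0.07, edgeR adjusted p = 0.42) or lane 3 (log2 -0.10, edgeR adjusted p = 0.132).

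Neurod1 (ENSMUSG00000034701, chromosome 2, 79452521 to 79456751), a factor needed for dentate granule cells, did not pass, with a log2 fold change of 0.08 and a 95% interval of -0.04 to 0.19 (edgeR adjusted p = 0.233). The tunicamycin libraries had 92.3, 96.1, 79.6, 83.3, 80.9 and 82.3 CPM and the DMSO libraries 75.5, 80.2, 82.1 and 85.4 CPM. The 2 tunicamycin libraries of lane 1 were the 2 highest of all 10, and lane 1 alone gave 0.28 on the log2 scale (adjusted p = 0.00276 by edgeR), against -0.03 and -0.07 in lanes 2 and 3. Part of its exonic sequence, 13.01%, overlaps Cerkl and Gm26755, so its counts are uncertain.

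Among the partners and antagonists of the NeuroD factors, of 7 E protein and Id genes 5 fell and 1 rose, with a median of -0.20. Tcf4, an E protein, averaged 752 ± 9.59 CPM with tunicamycin and 855 ± 36.1 CPM with DMSO (log2 -0.20). Tcf12, another E protein, rose (log2 0.53 ± 0.03, edgeR adjusted p = 8.87e-12). All 4 Id genes, whose products bind E proteins and keep them from DNA, fell, and Id4 averaged 12.7 ± 0.460 CPM with tunicamycin and 25.3 ± 1.77 CPM with DMSO (log2 -1.01 ± 0.06, edgeR adjusted p = 6.23e-13).

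Of the factors of hippocampal cell types, Prox1 (ENSMUSG00000010175, chromosome 1, 190118035 to 190170714), a homeodomain factor that keeps dentate granule cells in their identity, fell. It had 14.7 CPM in the lowest, 16.1 in the median and 17.5 in the highest tunicamycin library, against 18.1, 20.2, 21.7 and 21.5 CPM in the DMSO libraries. The groups did not overlap, though the nearest libraries, both in lane 1, were close. Its log2 fold change of -0.36 ± 0.06 (SE) passed with an adjusted p of 3.86e-05 by edgeR. It was -0.23 in lane 1 alone, where it did not pass (edgeR adjusted p = 0.0784), and -0.45 and -0.46 in lanes 2 and 3. With 336 to 547 counts per library, Prox1 was the least deeply counted member.

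Bcl11b (ENSMUSG00000048251, chromosome 12, 107910403 to 108003602), also called CTIP2, a zinc finger factor of granule cells and of CA1 pyramidal neurons, fell by 0.16 on the log2 scale (SE 0.04; edgeR adjusted p = 0.00099). It ranged from 96.4 to 104 CPM with tunicamycin and had 103, 111, 115 and 115 CPM with DMSO, and the groups overlapped at DMSO replicate 1. In lane 1 alone its log2 fold change was -0.04 and did not pass (edgeR adjusted p = 0.622), against -0.26 and -0.23 in lanes 2 and 3.

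Zbtb20 (ENSMUSG00000022708, chromosome 16, 42875881 to 43642602), a zinc finger factor that specifies hippocampal pyramidal neurons and is also expressed in astrocytes, was the most deeply counted member and the most variable. It had 737 CPM in the lowest, 782 in the median and 910 in the highest tunicamycin library, against 634, 998, 835 and 905 CPM in the DMSO libraries. DMSO replicate 1 was the lowest and DMSO replicate 2 the highest of all 10. The coefficient of variation was 7.99% with tunicamycin and 18.3% with DMSO, where counting error alone is at most 0.827%. The log2 fold change was -0.09, with a 95% interval of -0.38 to 0.19 (edgeR adjusted p = 0.541), and -0.21 without DMSO replicate 1, when it passed (edgeR adjusted p = 0.0338), and -0.0046 without DMSO replicate 2. Lane 1 alone gave 0.04 (edgeR adjusted p = 0.935), and lanes 2 and 3 gave -0.14 (edgeR adjusted p = 0.00386) and -0.22 (edgeR adjusted p = 1.09e-07), both called lower, each with a single DMSO library that was assumed to vary like the tunicamycin pair. DMSO replicate 1 was the lowest DMSO library for 8 of the 9 members and the highest for Slc17a6. It also had the lowest DMSO sum of astrocyte markers and of pan-neuronal markers, and the part of these in its member values was not tested.

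Markers of the cell types that these factors specify were mixed. Of 10 tested dentate granule cell markers 4 fell and 2 rose, and the median change was -0.04 on the log2 scale (-0.16 under upper-quartile scaling, and -0.07 without DMSO replicate 2 to -0.02 without DMSO replicate 4). The rises numbered 3 without DMSO replicate 1 or tunicamycin replicate 3 and with lane as a term. Calb1, the calcium buffer calbindin, fell (log2 -0.37 ± 0.06, edgeR adjusted p = 2.04e-05), and C1ql2, a secreted synaptic organizer of mossy fibres, rose (log2 0.39 ± 0.06, edgeR adjusted p = 9.27e-06). Of 14 pyramidal cell markers 8 fell and 1 rose, with a median of -0.18. Camk2a, the kinase subunit abundant in excitatory neurons, averaged 790 ± 15.4 CPM with tunicamycin and 959 ± 60.1 CPM with DMSO (log2 -0.29). Wfs1, a CA1 marker that is also an ER membrane protein known to be induced by ER stress, rose (log2 0.30), and a second rise was called without tunicamycin replicate 5 or 6. Of 20 other projection neuron factors 11 fell and 4 rose, with a median of -0.13. Rorb, a nuclear receptor known from layer 4 of the cortex, averaged 29.5 ± 2.06 CPM with tunicamycin and 10.5 ± 0.353 CPM with DMSO (log2 1.48 ± 0.06, edgeR adjusted p = 8.48e-15), and Nfix, a nuclear factor I protein, fell (log2 -0.37).

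**Figure D4:**
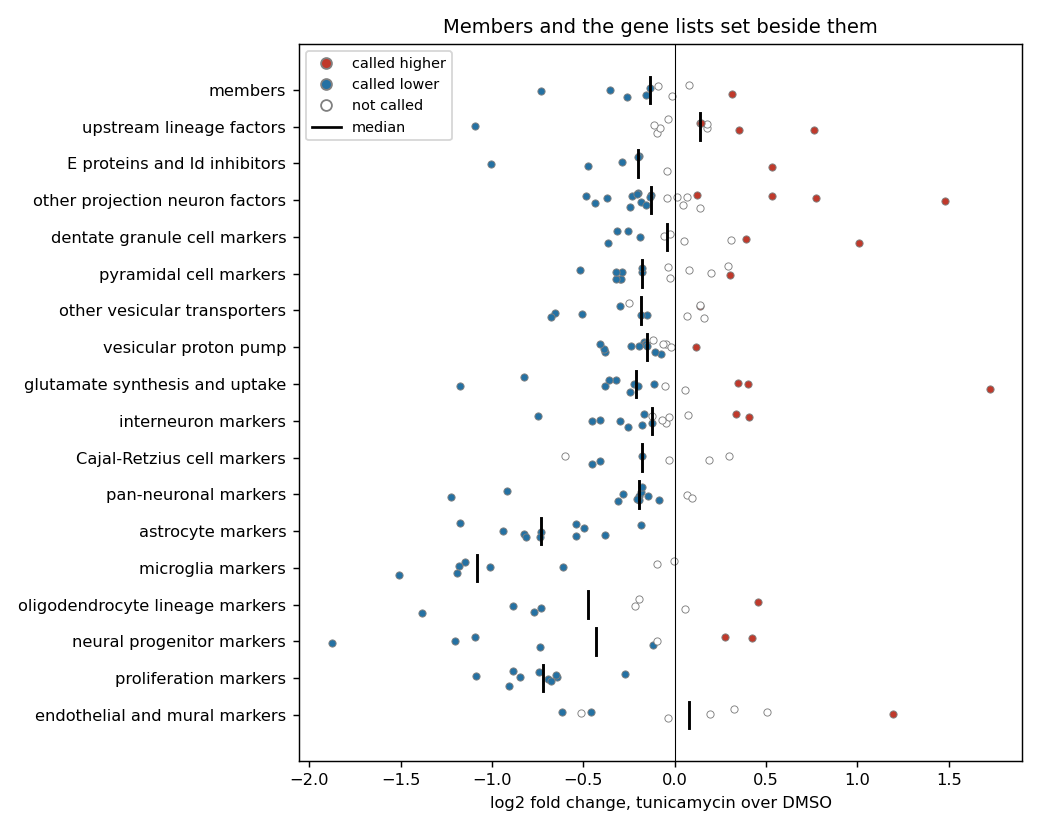
Log2 fold change, tunicamycin over DMSO, of each tested gene (points; red called higher, blue called lower, open not called) for the 9 members and the 17 lists, with the median of each as a black bar. The members' median is -0.13, the pan-neuronal median -0.20 and the astrocyte median -0.73.

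Other cell classes moved beside the members. Of 13 pan-neuronal markers 11 fell and none rose, with a median of -0.20, and their sum was 6975 to 7322 CPM with tunicamycin and 8231 to 8710 CPM with DMSO. Nefh, the heavy neurofilament protein, fell the most clearly (log2 -1.23), and Rbfox3, which encodes NeuN, did not pass (log2 0.07). A rise of 1 pan-neuronal marker was called with DESeq2 size factors, with no filter, at a mean of at least 1 CPM, and without any 1 of DMSO replicates 3 and 4 and tunicamycin replicates 1, 4 and 5. Of 15 interneuron markers 8 fell and 2 rose (1 without DMSO replicate 2), with a median of -0.12, and their sum was 1028 to 1104 CPM with tunicamycin and 1143 to 1274 CPM with DMSO. Gad1, an enzyme of GABA synthesis, did not pass (261 ± 11.5 CPM with tunicamycin and 268 ± 12.1 CPM with DMSO, log2 -0.05), while Gad2 (139 ± 8.08 CPM with tunicamycin and 151 ± 9.96 CPM with DMSO) fell by 0.12 on the log2 scale, a call lost when any 1 of DMSO replicates 2, 3 and 4 or of tunicamycin replicates 3, 4, 5 and 6 was left out (log2 -0.13 to -0.07). Calb2, calretinin, had the smallest p of the list (log2 -0.45), and Dlx2 rose (log2 0.33). The list had 5 falls without DMSO replicate 3, without tunicamycin replicate 6 or by the DESeq2 Wald test, and 4 with the replicate block, and its median was -0.07 without DMSO replicate 4 and -0.19 without DMSO replicate 2. The summed pan-neuronal markers and the summed interneuron markers were thus lower with tunicamycin. So was the sum of the pyramidal cell markers, 1219 to 1266 CPM with tunicamycin and 1342 to 1490 CPM with DMSO. The sum of the dentate granule cell markers was not, at 163.3 to 171.3 CPM with tunicamycin and 154.1 to 165.8 CPM with DMSO. The part of these sums in the members' values was not tested.

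All 11 astrocyte markers fell, with a median of -0.73 and no marker at 0. Of 8 tested microglia markers 6 fell, with a median of -1.08, Tyrobp (log2 -1.19) having the smallest p. These 6 were near the floor, with means of at most 2.205 CPM in either group. The better counted Aif1 (log2 -0.0015, 6.17 CPM with tunicamycin and 6.14 CPM with DMSO) and Csf1r (log2 -0.10, 3.10 and 3.33 CPM) did not pass. All 10 proliferation markers fell, led by Rrm2 (log2 -1.09), with a median of -0.72. Of 8 neural progenitor markers 5 fell and 2 rose, Nes (log2 0.42) and Hes1, with a median of -0.43, which was -0.12 when a mean of at least 1 CPM was required. The count of rises was 1 without any 1 of DMSO replicates 2, 3 and 4 and tunicamycin replicates 2, 3, 5 and 6, and 0 under upper-quartile scaling. Of 8 tested oligodendrocyte lineage markers 4 fell, among them Cnp (log2 -0.73), and Mog rose (log2 0.46), with a median of -0.47. Of 8 tested endothelial and mural markers Rgs5 (log2 -0.62) and Dcn fell and Flt1 (log2 1.19) rose. Flt1 was near the floor, at 1.62 ± 0.386 CPM with tunicamycin and 0.688 ± 0.247 CPM with DMSO. The median of this list was 0.08. That median was -0.25 at a mean of at least 1 CPM and -0.04 under upper-quartile scaling. It ran from -0.11 to 0.13 with 1 library left out, below 0 without DMSO replicate 4 and without tunicamycin replicates 2, 3 and 5, each in turn. Whether the changes of these markers bear on the CPM of the neuronal members was not tested.

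The order of the members' levels was compared as CPM per kilobase of annotated exon (RPKM). With tunicamycin it was Neurod6 (210 ± 4.41 RPKM), Slc17a7 (98.9 ± 2.72), Neurod1 (31.4 ± 2.48), Zbtb20 (25.9 ± 2.07), Neurod2 (25.2 ± 1.04), Slc17a6 (13.3 ± 0.261), Bcl11b (12.3 ± 0.399), Tbr1 (5.61 ± 0.182) and Prox1 (1.91 ± 0.118; SD, n = 6). With DMSO Neurod6 (210 ± 9.18 RPKM), Slc17a7 (118 ± 6.20) and Neurod1 (29.6 ± 1.51) also led and Prox1 (2.43 ± 0.197; SD, n = 4) was last. The ranges of Neurod1, Neurod2 and Zbtb20 overlapped from neighbour to neighbour in both groups, and all other neighbours were apart. Slc17a6 stood above Bcl11b with tunicamycin and below it with DMSO, where Bcl11b had 13.7 ± 0.689 RPKM and Slc17a6 10.6 ± 0.472 RPKM, and no libraries overlapped in either group. Tbr1 had 9.25 ± 0.4935 RPKM with DMSO and was just below Slc17a6. The level of Zbtb20 per length was taken over all exons of its 21 annotated transcripts, 30730 bases in all.

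**Figure D5:**
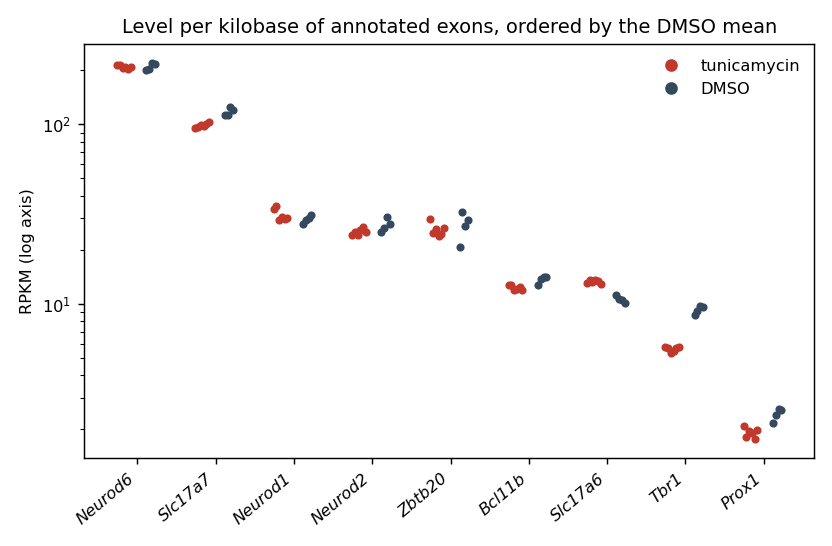
CPM per kilobase of annotated exon (RPKM, log axis) of each member in each library, tunicamycin (red, left) and DMSO (dark, right), ordered by the DMSO mean. Neurod6 leads at about 210 RPKM in both groups, and Slc17a6 and Bcl11b change places between the groups.

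Genes most like the members with the largest called fall, Tbr1, and the largest called rise, Slc17a6, were looked up by the Pearson correlation of log2(CPM + 0.1) over the 10 libraries, among 11154 genes with a mean of at least 5 CPM. For Tbr1 they were Prkce, a protein kinase C isoform (r = 0.999), Aldoc, the aldolase of astrocytes (r = 0.997), and Hspa12a, an Hsp70 relative (r = 0.996). Aldoc averaged 179 ± 5.92 CPM with tunicamycin and 312 ± 17.3 CPM with DMSO. For Slc17a6 they were Nrf1 (r = 0.996) and Nfya (r = 0.995), a pair of transcription factors, and the cationic amino acid transporter Slc7a3 (r = 0.994). Slc7a3 averaged 31.7 ± 2.41 CPM with tunicamycin and 16.7 ± 2.07 CPM with DMSO. The points share the libraries and the difference between the groups, and no p is given.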

How the data were processed

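Raw counts of whole numbers, 1 table per library with 48709 Ensembl genes, were deposited by the authors. The submitters' processing notes name STAR 2.5.2b, featureCounts, Subread 1.5.1, DESeq2 and mm10, with no roles; neither a strand setting nor an annotation release was given in the sources used here. The TruSeq kit, named per the labels' protocols, does not mark strand. The authors also deposited tables of their comparison, with a log2 fold change, an adjusted p-value and a normalized signal per library, which equalled the deposited counts over 1 factor per library (tolerance 1e-04) for 100% of values; of these, only the direction listed for members was used.

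Names, positions and exon lengths came from GENCODE M21 (GRCm38, of which mm10 is another name), which matched 48349 identifiers; the 360 others held 0.046% of counts. The test was edgeR 4.0.16 in R 4.3.3 (quasi-likelihood, robust, two-sided, TMM, filterByExpr, Benjamini-Hochberg over 15660 genes). It was also run on simulated counts with few genes changed, as many up as down, which cannot test the choice of scaling. The SE was the log2 fold change over the root of F. CPM used the library totals. A gene with 10% or more of its exonic bases in another gene, or of its 50-base words in other transcripts beyond such overlap, was taken as uncertain. The members and 17 lists were chosen with earlier results of these data known. The lists held 201 entries of 194 genes, so some genes stand in more than 1 list and the lists are not independent. Named from each list were the called genes with the smallest p in each direction, plus Hspa5, Ddit3, Gad1, Gad2, Slc32a1, and for Tbr1 and Slc17a6 the 3 most correlated genes; others were named after their values were seen. Genes withheld for evaluation are not reported here. Alternatives were DESeq2 size factors, upper-quartile scaling, no filter, a mean of at least 1 CPM, the DESeq2 1.42.0 Wald test, a replicate block, lane as a term and each library left out; fits within lanes were chosen after seeing the data.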

Additional observations from a re-analysis of the deposited data

How the results depend on the processing

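Slc17a7, Slc17a6, Tbr1, Prox1 and Bcl11b kept their direction and their call in the 17 alternatives other than single lanes. With no filter on low counts 2 members were called higher, the added one being Neurod1 (log2 0.10, edgeR adjusted p = 0.0352). Leaving out 1 library at a time gave 1 member higher each time and 4 to 6 lower, and 4796 to 4963 genes higher and 4726 to 4997 lower. The log2 balance of Slc17a7 to Slc17a6 was -0.62 to -0.54 with 1 library left out, and -0.51 and -0.70 within lanes 1 and 2, beside -0.57 in all libraries. Signs that turned belonged to values that did not pass the test as reported. The Neurod1 log2 fold change was -0.0377 under upper-quartile scaling and -0.0324 and -0.0712 in lanes 2 and 3. The Neurod6 log2 fold change was 0.0066 with no filter, 0.016 and 0.0077 without DMSO replicates 3 and 4, from -0.0372 to 0.016 with any 1 library left out, and 0.0902 in lane 1 (-0.10, called lower, in lane 2). Zbtb20 was at 0.0413 in lane 1, while lanes 2 and 3 called it lower. The Zbtb18 log2 fold change, of a listed projection neuron factor, was 0.01 and not called in the fit on all libraries and -0.10 and called under upper-quartile scaling. The cause of these moves was not tested. In lanes 2 and 3 the lone DMSO library was assumed to vary like the tunicamycin libraries.

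With the replicate block, on the libraries numbered 1 to 4 in both groups, 4417 genes were higher and 4398 lower, against 4700 and 4758 on the same libraries without it, and the same 6 members were called. Same-numbered libraries did not deviate together (r of their deviations from the group means -0.23, -0.02, -0.05 and -0.07). The numbers thus gave no sign of pairing, though so few libraries cannot exclude it.

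Prox1 was the member with the lowest count, 336, which carries a counting error of 5.46%. Upper-quartile scaling lowered most list medians by about its shift of -0.11, and with no filter 7 oligodendrocyte lineage markers were lower, against 4 as reported; at a mean of at least 1 CPM 3 microglia markers were lower, against 6.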
